A study of Rana pirica with 9 samples.

Results

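The nuclear-coded genes of the mitochondrial respiratory chain were examined in tadpole brains of the brown frog Rana pirica, whose tadpoles had been kept with salamander larvae, which eat tadpoles, or without them. Members were the probe sets with a single gene symbol in the platform annotation that begins with nduf (complex I), sdha to sdhd (complex II), uqcr (complex III), cox4 to cox8 (complex IV) or atp5 (complex V, the ATP synthase). They numbered 70 of 15491 probe sets and named 54 of 6485 genes. Complex I had 29 probe sets of 24 genes and complex II had 4 of 3. Complex III had 5 probe sets of 4 genes, complex IV 14 of 10 and complex V 18 of 13. A further 5 probe sets were left out by that rule. Each carried several symbols of a single gene (ndufs7, sdhd, atp5mc1, uqcrfs1 or uqcrc2) that differed only in the ending for the gene copy.

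The salamander group had 3 arrays, from tadpoles that lived with larval salamanders for 8 days, and the control group had 6, from tadpoles kept for the same time without a predator. All tadpoles were taken before the hind limbs had grown, and each array carried total RNA of 10 pooled brains on an Affymetrix array with probes for Xenopus, another genus of frog. Where a probe and the Rana transcript differ in sequence, the signal need not follow the transcript. Values are the authors' log2 signals relative to the median of the 6 control arrays of each probe set, so that the control median is 0 throughout. They give differences between arrays, not levels, and neither the presence of brain markers nor an order of levels between genes could be read from them.

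The respiratory chain passes electrons from food molecules to oxygen in the inner mitochondrial membrane. Complex I takes them from NADH and complex II from succinate, both hand them to coenzyme Q, complex III moves them on to cytochrome c, and complex IV reduces oxygen. Complexes I, III and IV pump protons as they work, and complex V lets the protons flow back to make ATP, of which neurons use a large amount to keep their ion gradients. Roles given below are those of the mammalian proteins.

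No respiratory chain gene differed between brains of tadpoles with salamander larvae and controls by the test over all probe sets. Of the 70 members, limma called 0 at an adjusted p under 0.05, as it called 0% of all 15491 probe sets. The adjusted p-values of the members ran from 0.866 to 0.999. An unadjusted p under 0.05 was reached by 4 members, the accessory complex I genes ndufa3 and ndufs4, which stood higher in the salamander group, and the complex IV gene cox6c and complex V gene atp5mg, which stood lower. That is 5.71% of the members against 5.15% of all probe sets, of which 2.12% were higher and 3.03% lower. In 0 of 70 members did the salamander arrays all lie above, or all lie below, every control, against 2.33% of all probe sets. A difference of more than 1 on the log2 scale, or 2-fold, was found in 13 members, with 6 higher and 7 lower, or 18.6% against 16.1% of all probe sets.

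As a list the members lay close to the rest of the array. In the salamander group 31 members were higher than in controls and 39 were lower, and the median difference was -0.14, against 0.002 over all probe sets. The quartiles were -0.40 and 0.41 for the members and -0.45 and 0.44 for all probe sets. The median differences by complex were -0.18 for complex I, 0.09 for complex II, 0.16 for complex III, -0.21 for complex IV and -0.19 for complex V. Counted by direction, 13 of 29 probe sets were higher in complex I, 2 of 4 in complex II, 4 of 5 in complex III, 6 of 14 in complex IV and 6 of 18 in complex V. Without salamander array 3 the median over the members was 0.06, and without control array 1 it was -0.18.

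**Figure D1:**
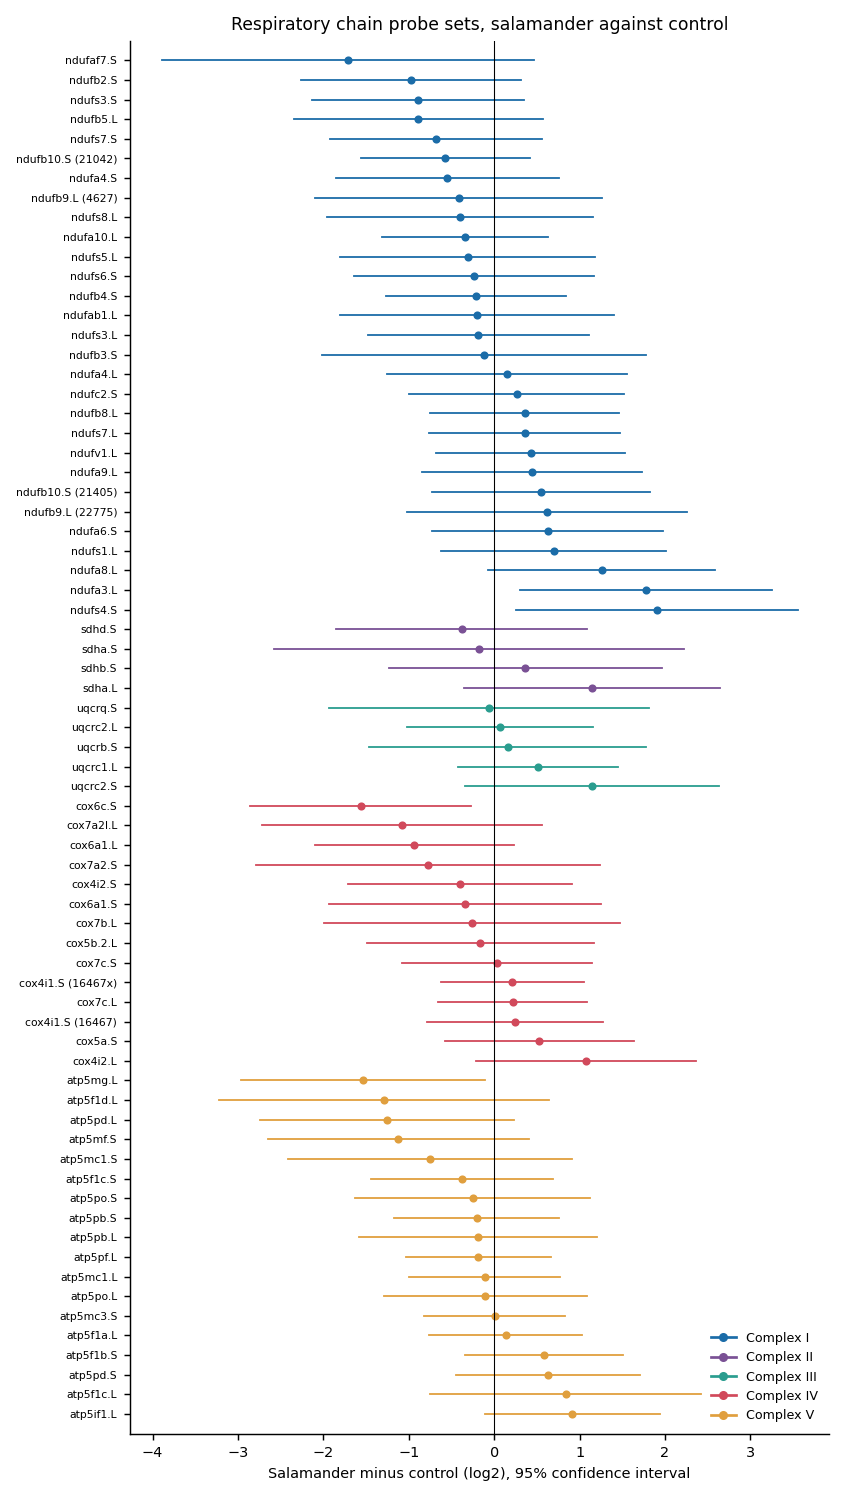
Difference between salamander and control arrays on the log2 scale for each of the 70 probe sets, with its 95% confidence interval from limma, grouped by complex; a number in brackets tells apart probe sets with the same symbol. The intervals of ndufa3 and ndufs4 lie above 0 and those of cox6c and atp5mg below it, and those of the other probe sets include 0.

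Averaged over its probe sets, complex I stood at -0.07 ± 0.25 on salamander arrays (SD, n = 3) and at -0.10 ± 0.17 on control arrays (SD, n = 6). Complex II stood at 0.22 ± 0.26 on salamander arrays and -0.02 ± 0.80 on controls. Complex III stood at 0.43 ± 0.49 on salamander arrays and 0.06 ± 0.19 on controls. Complex IV stood at -0.30 ± 0.08 on salamander arrays and -0.07 ± 0.35 on controls, and complex V at -0.24 ± 0.12 on salamander arrays and 0.001 ± 0.20 on controls. In each of the 5 complexes the ranges of salamander and control arrays overlapped. The overlap in complex IV rested on control array 3, at -0.70. The other controls, the lowest at -0.06, lay above all salamander arrays, at -0.36 to -0.21. In complex V salamander arrays 1 and 3, at -0.36 and -0.23, lay below all controls, the lowest at -0.22. With the probe sets of each complex V gene averaged first, array 1 alone did so, at -0.42 against a lowest control of -0.39. Salamander array 3 then stood at -0.16, within the control range. In complex III salamander arrays 1 and 3, at 0.35 and 0.95, lay above all controls, the highest at 0.23. The largest mean difference, 0.36 for complex III, came with salamander array 3 at 0.95 and salamander array 2 at -0.01.

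**Figure D2:**
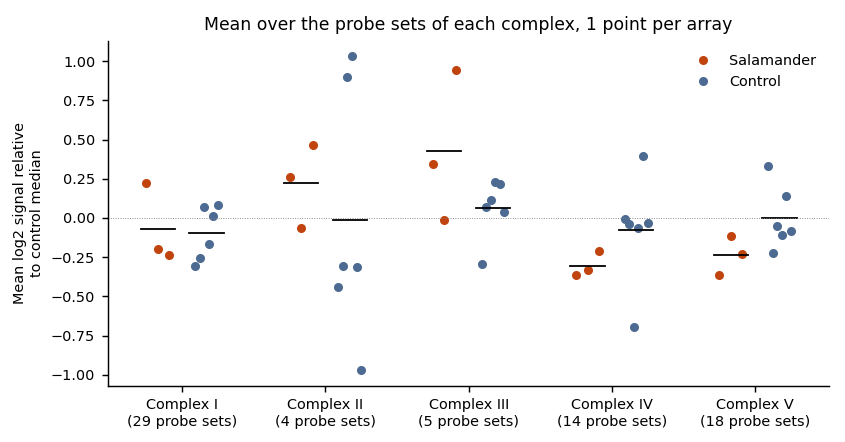
Mean log2 signal relative to the control median over the probe sets of each complex, with 1 point per array and a line at each group's mean. The ranges of the 3 salamander and the 6 control points overlap in all 5 complexes, in complex IV only through control array 3.

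In complex I, the subunits that bind NADH and carry electrons along the peripheral arm went no common way. The genes ndufv1 (which holds the flavin and binds NADH), ndufs1, ndufs7 and ndufs8 (which hold iron-sulfur clusters) and ndufs3 (a core subunit beside them) had 7 probe sets, with 3 higher and 4 lower, a median of -0.18 and an unadjusted p under 0.05 in 0. The ndufv1 probe set read 0.42, -0.07 and 0.20 on the 3 salamander arrays, against -1.41 to 0.54 on the controls. Its difference of 0.43 had a 95% confidence interval from -0.69 to 1.54. For ndufs1 the salamander arrays read 0.50, -0.26 and 1.72, against -1.15 to 1.17 on the controls. The salamander arrays fell on both sides of the control median in both genes, and each overlapped the controls.

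The ndufs3 and ndufs7 probe sets showed how much a single salamander array could weigh. The S copy of ndufs3 read 0.22, -0.33 and -2.40 on salamander arrays 1, 2 and 3, against -0.28 to 0.64 on the controls. The L copy of ndufs3 read 0.83, -0.33 and -1.40 on the same arrays, against -1.01 to 0.64 on the controls. The endings L and S mark the gene copies on the paired chromosome sets of Xenopus laevis. Here L copy and S copy name the probe set with that ending, and separate copies in Rana were not shown. Both ndufs3 probe sets were thus lowest of all 9 arrays on salamander array 3, and so was the S copy of ndufs7, at -2.21 there against 0.39 and -0.24 on salamander arrays 1 and 2 and -0.43 to 0.39 on the controls. The L copy of ndufs7 read -0.15 on that array, inside the control range of -1.04 to 0.59. The differences were -0.89 (interval -2.13 to 0.35) and -0.18 (-1.48 to 1.11) for the S and L copies of ndufs3, and -0.68 (-1.92 to 0.56) and 0.36 (-0.76 to 1.48) for those of ndufs7. For ndufs8 the salamander arrays read -0.68, -0.23 and -1.46, against -2.92 to 0.44 on the controls, and the difference was -0.40 (interval -1.96 to 1.16). The salamander arrays all lay below the control median and above control array 1.

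The accessory subunits of complex I held the 2 members with the largest positive differences. The probe set of ndufs4, a subunit of the NADH-binding arm altered in some cases of human Leigh syndrome, read 1.69, 1.56 and 2.20 on salamander arrays, against a range of -1.82 to 2.11 on controls. The salamander values lay close together near the top of the control range, and 1 control, array 6, was higher than 2 of them. The difference was 1.90 (SE 0.75, interval 0.26 to 3.55), or 3.74-fold, with an adjusted p of 0.884 in limma. For ndufa3, a small subunit of the membrane arm, the salamander arrays read 2.46, 1.95 and 1.57, against -0.91 to 2.19 on controls. Control array 1, at 2.19, overlapped them and the other 5 controls did not. The difference was 1.78 (SE 0.67, interval 0.31 to 3.25), or 3.43-fold, with an adjusted p of 0.866 in limma.

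Both of these probe sets carried marks of weak signal. A weak signal, read from the rounding of the deposited numbers, was marked for ndufs4 on 3 of 3 salamander arrays and 4 of 6 controls, and for ndufa3 on 3 salamander arrays and 3 controls. The mark is approximate: it can miss weak signals, and it can fall on an array because the control median, not that array, was weak. Of all 70 members, 38 had at most 1 marked value, or 54.3% against 45.4% of all probe sets. A further 12 had 4 or more, up to 7 for ndufs4. Among the 38, 1 had an unadjusted p under 0.05, cox6c, or 2.63% against 3.65% of all probe sets with at most 1 marked value.

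The other accessory subunits lay on both sides of 0. The ndufa8 probe set, for a subunit facing the intermembrane space, read 1.81, 2.10 and 0.13 on salamander arrays, against -0.83 to 1.47 on controls, a difference of 1.26 (interval -0.07 to 2.58). The lowest difference in complex I, singled out after the values were seen, was that of ndufaf7, which is not a subunit but a methyltransferase needed for assembly, at -1.71 (interval -3.89 to 0.47), with salamander arrays at -2.24, -1.37 and -2.22 and controls spread from -2.82 to 1.75. Of the ndufb genes, all in the membrane arm, 3 of 9 probe sets were higher and 6 lower, from -0.98 for ndufb2 to 0.62 for a probe set of ndufb9. The ndufb5 probe set, also singled out after its values were seen, read 0.66 and -0.26 on salamander arrays 1 and 2 and -2.88 on salamander array 3, against -0.17 to 0.47 on controls. Of the ndufb10 probe sets, one read 0.21, -0.93 and -0.98 on salamander arrays, against -0.43 to 0.43 on controls, a difference of -0.57 (interval -1.56 to 0.42). The other read 1.06, -0.07 and 0.43 on salamander arrays, against -1.25 to 0.98 on controls, a difference of 0.55 (interval -0.73 to 1.82). Both were highest of the salamander arrays on array 1, and the differences had opposite signs. Of the ndufb9 probe sets, one read 0.84, -0.75 and 0.54 on salamander arrays, against -2.23 to 1.05 on controls, a difference of 0.62 (interval -1.02 to 2.26). The other read -1.25, -1.14 and 1.27 on salamander arrays, against -1.19 to 1.43 on controls, a difference of -0.42 (interval -2.09 to 1.26). These too had opposite signs. The remaining accessory genes stood between -0.35 for ndufa10 and 0.63 for ndufa6, with ndufa9, ndufab1, ndufb3, ndufb4, ndufb8, ndufc2, ndufs5 and ndufs6 inside that range. The gene ndufa4, named for complex I but since placed in complex IV in mammals, was read by a probe set for each Xenopus copy. The L copy read -0.54, -0.08 and 0.35 on salamander arrays, against -1.72 to 0.85 on controls, a difference of 0.15 (interval -1.25 to 1.55). The S copy read -1.28, -0.41 and -0.63 on salamander arrays, against -1.55 to 1.04 on controls, a difference of -0.55 (interval -1.85 to 0.76). The salamander arrays lay within the control range in both probe sets.

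Complex II, which also acts in the citric acid cycle, had few probe sets and the widest spread. The L copy of sdha, the flavin subunit that oxidizes succinate, read 3.07, 0.54 and 0.84 on salamander arrays, against -0.45 to 1.58 on controls. Salamander array 1 stood above all controls and the others within their range, and the difference of 1.14 (interval -0.35 to 2.64) was 0.35 without that array. The S copy of sdha read -1.29, -1.32 and 2.15 on salamander arrays, against -2.48 to 3.004 on controls, a difference of -0.18 (interval -2.57 to 2.22). Its SD between replicates, 1.88, was the largest of all members. The iron-sulfur subunit gene sdhb read 1.21, 0.99 and -1.26 on salamander arrays, against -1.27 to 1.14 on controls, a difference of 0.36 (interval -1.24 to 1.97). The membrane anchor gene sdhd read -1.93, -0.46 and 0.13 on salamander arrays, against -1.89 to 0.78 on controls, a difference of -0.38 (interval -1.85 to 1.09). In both genes the salamander arrays were spread over most of the control range.

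In complex III, 4 of 5 probe sets were higher in the salamander group and none had an unadjusted p under 0.05. The core subunit gene uqcrc1 read 0.56, 0.08 and 0.61 on salamander arrays, against -0.90 to 0.25 on controls. Of the salamander values 2 were above all controls and the third was within their range, at a difference of 0.51 (interval -0.43 to 1.45). For uqcrc2, the other core subunit, the S copy read 0.17, 1.43 and 1.82 on salamander arrays against -1.25 to 1.26 on controls, with a difference of 1.14 (interval -0.35 to 2.63). The L copy read 0.30, -1.02 and 0.59 on salamander arrays, against -0.78 to 0.38 on controls, a difference of 0.07 (interval -1.02 to 1.16), with the salamander arrays reaching past both ends of the control range. The small subunit gene uqcrb read 0.63, 0.07 and 0.08 on salamander arrays, against -1.60 to 1.85 on controls. The differences were 0.16 for uqcrb and -0.06 for uqcrq, also a small subunit gene, with intervals that each allowed a change of more than 2-fold either way.

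In complex IV, the lowest difference was that of cox6c, which codes for a small membrane subunit. Its probe set read -1.12, -0.78 and -3.02 on salamander arrays, against -0.99 to 0.72 on controls. Salamander arrays 1 and 3 were below all controls and array 2 was not. The difference was -1.56 (SE 0.59, interval -2.86 to -0.27), 2.95-fold lower in the salamander group, with an adjusted p of 0.866 in limma. Without salamander array 3 it was -0.87.

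The other complex IV genes differed less, or varied more. The gene for subunit 4, the regulatory subunit that binds ATP, exists in a general form, cox4i1, and a form linked in mammals to lung and low oxygen, cox4i2. The cox4i1 probe set with the smaller spread read 0.42, 0.22 and 0.14 on salamander arrays, against -0.18 to 0.29 on controls, a difference of 0.21 (interval -0.63 to 1.06), and its other probe set, designed on the same target, read 0.54, 0.10 and 0.56 on salamander arrays, against -0.62 to 1.14 on controls, a difference of 0.24 (interval -0.79 to 1.27). The salamander arrays were above the control median in both. Yet the deviations of the arrays from their group means correlated at -0.24 between these probe sets. The L copy of cox4i2 read 1.33, 1.03 and 0.30 on salamander arrays, against -1.90 to 0.85 on controls, a difference of 1.07 (interval -0.22 to 2.37), while its S copy read -0.90, 0.02 and -1.21 on salamander arrays, against -1.75 to 0.59 on controls, a difference of -0.40 (interval -1.71 to 0.91).

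The genes cox5a and cox5b.2 code for subunits on the matrix side. For cox5a the salamander arrays read 0.38, -0.01 and 0.48, against -1.57 to 0.45 on controls, a difference of 0.53 (interval -0.58 to 1.64). For cox5b.2 they read -0.99, -0.41 and -0.53, against -2.31 to 0.25 on controls, a difference of -0.16 (interval -1.49 to 1.17). Nearly all of these values lay within the control range. The L copy of cox6a1, a small regulatory subunit, read -0.70, -1.43 and -0.61 on salamander arrays, against -1.19 to 1.14 on controls, a difference of -0.93 (interval -2.10 to 0.23). The S copy read -0.82, 1.87 and -1.80 on salamander arrays, against -0.59 to 0.81 on controls, a difference of -0.34 (interval -1.93 to 1.25). In the S copy each salamander array lay outside the control range, 1 above it and 2 below.

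Among the subunit 7 genes, the L copy of cox7c read 0.26, 0.20 and 0.07 on salamander arrays, against -0.50 to 0.25 on controls, a difference of 0.22 (interval -0.65 to 1.09). Its S copy read -0.12, 0.07 and -0.66 on salamander arrays, against -1.16 to 0.56 on controls, a difference of 0.03 (interval -1.08 to 1.14). Both differences were small, but each of these intervals included a 2-fold change. The cox7a2 probe set read -1.19, -2.46 and 1.45 on salamander arrays, against -1.53 to 1.72 on controls, a difference of -0.78 (interval -2.79 to 1.23). The gene cox7b stood at -0.26, and cox7a2l, whose product helps to join complexes III and IV, at -1.08 (interval -2.72 to 0.55).

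**Figure D3:**
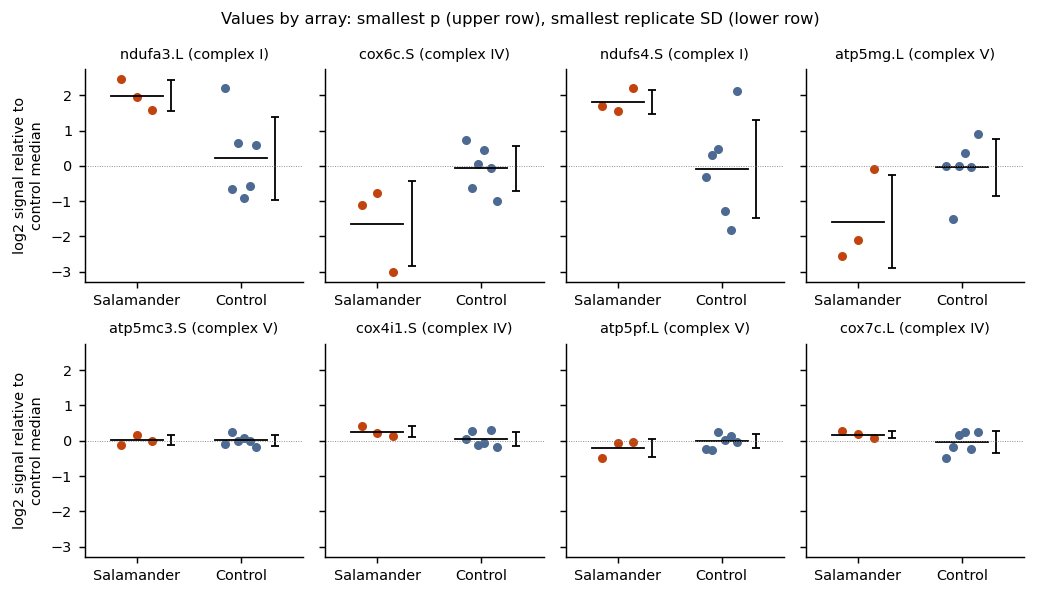
Log2 signal relative to the control median on each array for the 4 probe sets with the smallest p (upper row) and the 4 with the smallest SD between replicates (lower row); lines are group means, and the bars beside them the SD. In the upper row at least 1 salamander point lies within the control range for each gene, and in the lower row all 9 arrays lie between -0.50 and 0.42.

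In complex V, the alpha and beta subunits of the catalytic head had little spread between arrays. The probe set of atp5f1b, the beta subunit that carries the catalytic site, read 0.48, 0.53 and 0.87 on salamander arrays, against -0.40 to 0.76 on controls. Salamander array 3 alone was above all controls, and the difference was 0.58 (interval -0.34 to 1.504). For atp5f1a, the alpha subunit, the salamander arrays read 0.01, 0.38 and -0.19, against -0.58 to 0.36 on controls, a difference of 0.14 (interval -0.76 to 1.03). The gamma subunit gene atp5f1c, the turning shaft, had probe sets of opposite sign. The L copy read -0.38, 2.26 and 1.95 on salamander arrays, against -0.48 to 1.91 on controls, a difference of 0.84 (interval -0.75 to 2.42). The S copy read -0.71, -0.15 and -0.63 on salamander arrays, against -1.20 to 0.62 on controls, a difference of -0.38 (interval -1.44 to 0.69). The gene atp5f1d, also of the shaft, gave -1.30 (interval -3.23 to 0.64).

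The ring and the stalk of complex V also showed no call. The ring of c subunits, which turns as protons pass, is coded by atp5mc1 and atp5mc3 among the members. The atp5mc3 probe set read -0.12, 0.16 and 0.00 on salamander arrays, against -0.18 to 0.24 on controls, and its difference was 0.004 (interval -0.83 to 0.83). All 9 arrays thus lay close to the control median. This probe set was not among the 38 members with at most 1 value marked weak. For atp5mc1 the L copy read -0.16, -0.60 and 0.27 on salamander arrays, against -0.29 to 0.14 on controls, a difference of -0.11 (interval -0.99 to 0.77). Its S copy read -0.17, -1.18 and -0.92 on salamander arrays, against -1.66 to 1.77 on controls, a difference of -0.75 (interval -2.41 to 0.91).

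Of the stalk that holds the head still (atp5pb, atp5pd, atp5pf and atp5po), 1 of 7 probe sets was higher and 6 were lower, with a median of -0.19. For atp5pd the L copy read -0.03, -1.59 and -2.67 on salamander arrays, against -1.87 to 0.59 on controls, a difference of -1.26 (interval -2.74 to 0.23). Its S copy read -0.24, 1.13 and 1.22 on salamander arrays, against -0.38 to 0.95 on controls, a difference of 0.63 (interval -0.45 to 1.71). The probe sets of atp5pd thus had opposite signs. For atp5pb the L copy read -0.14, 1.29 and -0.59 on salamander arrays, against -0.50 to 1.98 on controls, a difference of -0.19 (interval -1.58 to 1.198). Its S copy read -0.62, 0.47 and -0.66 on salamander arrays, against -0.67 to 0.22 on controls, a difference of -0.21 (interval -1.17 to 0.76). In both probe sets salamander array 2 was the highest of the 3. For atp5po, whose product joins the stalk to the head, the L copy read -0.90, 0.26 and -0.70 on salamander arrays, against -1.79 to 0.22 on controls, a difference of -0.11 (interval -1.29 to 1.08). The S copy read 1.24, -0.79 and -1.35 on salamander arrays, against -0.80 to 0.73 on controls, a difference of -0.25 (interval -1.63 to 1.12). The highest of the salamander arrays was array 2 in the L copy and array 1 in the S copy.

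The membrane subunit gene atp5mg, whose product helps pairs of ATP synthases to bend the membrane, read -2.56, -2.11 and -0.08 on salamander arrays, against -1.505 to 0.89 on controls. Salamander arrays 1 and 2 lay below all controls and array 3 close to the control median. The difference was -1.53 (SE 0.65, interval -2.96 to -0.11), 2.90-fold lower in the salamander group, with an adjusted p of 0.925 in limma. The related gene atp5mf stood at -1.12 (interval -2.65 to 0.41). The inhibitor gene atp5if1, whose product stops the synthase from running backwards, read 1.06, 0.48 and 1.27 on salamander arrays, against -0.84 to 0.80 on controls, a difference of 0.92 (interval -0.11 to 1.94).

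The spread between replicates differed widely between members. The SD between replicate arrays, pooled over the 2 groups, ran from 0.14 for atp5mc3 to 1.88 for the S copy of sdha, with a median of 0.86, against 0.96 over all probe sets. By complex its median was 0.86 for complex I, 1.10 for complex II, 1.04 for complex III, 0.84 for complex IV and 0.66 for complex V. The members with the smallest SD were, in order, atp5mc3, a cox4i1 probe set at 0.19, atp5pf at 0.21, the L copies of cox7c at 0.26 and atp5mc1 at 0.28, atp5f1a at 0.32, atp5f1b at 0.36 and uqcrc1 at 0.39. The 4 members with an unadjusted p under 0.05 had SDs of 0.84 to 1.195.

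These spreads set what the arrays could exclude for the signal of a probe set, which need not follow the Rana transcript. The 95% confidence interval of the moderated fit excluded a 2-fold difference either way for 2 members, atp5mc3 and the L copy of atp5mc1, or 2.86% against 2.78% of all probe sets. It excluded a 4-fold difference for 45 members, or 64.3% against 54.6%. Limma draws small SDs towards those of the other probe sets. Without that, intervals from the same linear model excluded 2-fold for 7 members, or 10.0%, the same share as over all probe sets. They were atp5mc3 (-0.23 to 0.24), the tighter cox4i1 probe set (-0.10 to 0.52), atp5pf (-0.54 to 0.17), the L copy of cox7c (-0.22 to 0.66), the L copy of atp5mc1 (-0.59 to 0.36), atp5f1a (-0.39 to 0.67) and the S copy of atp5pb (-0.93 to 0.52). The cox4i1 probe sets were the only 2 members whose platform names mark probes that can match several transcripts.

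**Figure D4:**
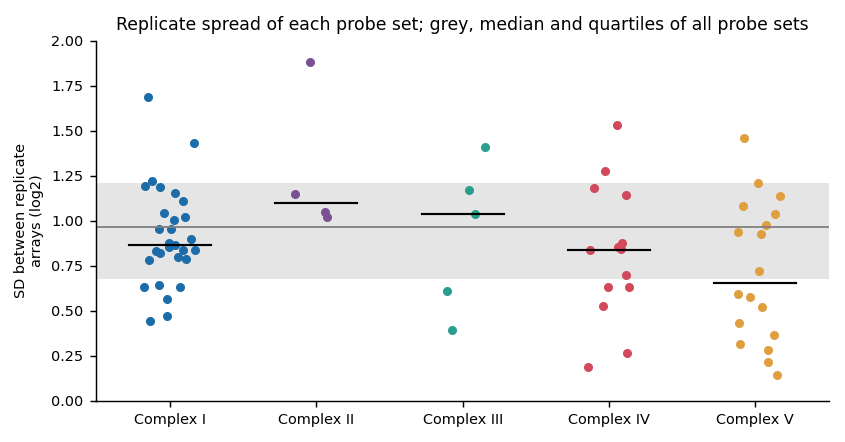
SD between replicate arrays on the log2 scale for each probe set, by complex, with black lines at the medians of the complexes and a grey line and band at the median and quartiles of all 15491 probe sets. Complex V has the lowest median, 0.66, and its values reach from 0.14 to 1.46.

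Where a gene had more than 1 probe set, these disagreed as often as not. In the 16 genes with a pair of member probe sets, the differences had the same sign in 8 pairs, or 50.0%, against 49.9% of 4219 such pairs over all genes. The deviations of the arrays from their group means correlated at 0.11 on average within the 16 pairs, over 9 arrays that the pairs share, and at 0.0088 within all pairs. Within the 16 the correlations ran from -0.45 for atp5pd to 0.80 for ndufs3, with 11 above 0. Between different members the average was -0.0044. Whether a given probe set followed the Rana transcript of the gene it names was not shown. At the level of genes, with probe sets averaged, limma called 0 of 54, as it called 0% of all 6485 genes, and 4 genes had an unadjusted p under 0.05, or 7.41% against 4.81%.

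**Figure D5:**
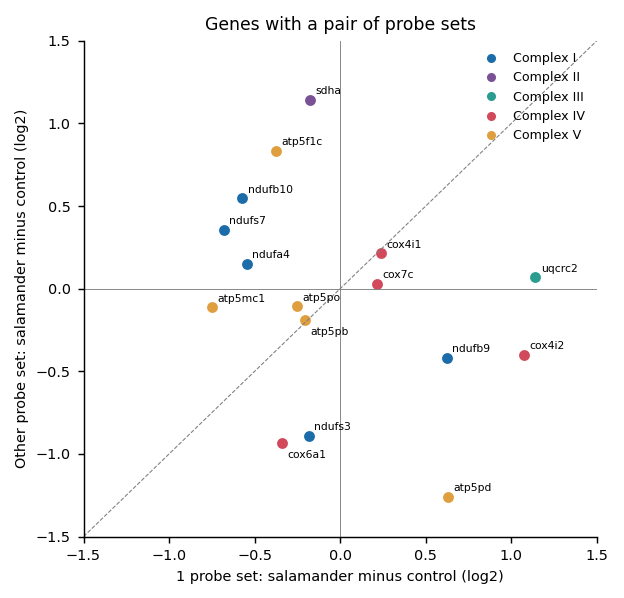
Difference between salamander and control arrays (log2) in both probe sets of the 16 genes that had a pair, coloured by complex; the dashed line marks equal values. Genes lie in opposite quadrants, such as sdha and atp5pd, as often as in matching ones.

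The arrays fell into 2 sets by their poly-A spike-in RNAs, and the labels name no batch. These RNAs were high on salamander arrays 1 and 2 and controls 2, 3 and 4. They were low on salamander array 3 and controls 1, 5 and 6. For the 4 members with an unadjusted p under 0.05 the difference within the high and then the low set was 2.51 and 0.84 for ndufa3, 1.80 and 2.20 for ndufs4, -0.91 and -2.91 for cox6c, and -1.96 and -0.36 for atp5mg. Array medians over all probe sets lay between -0.0084 and 0.0069. Within the high set the median difference over the members was 0.05 and within the low set, which rests on salamander array 3 alone, it was -0.03. The sign of the difference was the same in both sets for 36 of 70 members, or 51.4%, against 50.2% of all probe sets. Between high and low arrays, with the group in the fit, limma called 0 members and 0% of all probe sets, and 1 member, the L copy of atp5pd, had an unadjusted p under 0.05, or 1.43% against 5.32%.

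Genes that feed or build the chain gave no call either. Cytochrome c, cycs, which carries electrons from complex III to IV, read 2.05, 1.84 and 1.70 on salamander arrays against -1.68 to 1.92 on controls, a difference of 1.81 (SE 0.74) with an adjusted p of 0.993 in limma. With it, 5 of 6 genes from a list of cytochrome c, cyc1 and complex III assembly factors were higher. Of these 0 passed the test in either direction, as in every list that follows. Of the genes for complex IV assembly 2 of 7 were higher, and in coa5 the salamander arrays, at -0.97, -1.13 and -2.40, lay below all controls, at -0.43 to 0.30, as 2.19% of all genes lay above or below theirs. Of other enzymes that pass electrons to coenzyme Q 3 of 6 were higher, among them the proline-degrading prodh at 2.41 (SE 0.49, adjusted p = 0.371 in limma), which also lay above all controls, with salamander arrays at 1.94, 3.04 and 2.23 against controls at -0.87 to 1.04. Genes for coenzyme Q synthesis had 4 of 5 higher, those of the citric acid cycle and pyruvate dehydrogenase 8 of 16, and carriers and uncoupling proteins 3 of 4. Regulators of mitochondrial biogenesis and mitochondrial DNA had 2 of 11 higher, porins and import 10 of 17, and the mitochondrial ribosome 19 of 36. The median differences of these lists ran from -0.24 for complex IV assembly to 0.61 for coenzyme Q synthesis. Subunits coded by mitochondrial DNA matched 0 probe sets with a single symbol and were not analysed here.

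Markers of the cells in a dissected brain were set beside the members, since in bulk RNA fewer cells of a type and less RNA per cell cannot be told apart. Of 9 neuronal marker genes 7 were higher in the salamander group. Their mean lay between 0.51 and 0.96 on salamander arrays and between -0.18 and 0.19 on controls, and their median difference was 0.61. The filament genes ina, at a difference of 2.68, and nefm, at 0.86, lay above all controls. The gene ina had the largest difference of the 9 and weighs most in that mean. It read 3.53, 3.22 and 2.42 on salamander arrays, against -1.07 to 2.20 on controls. Taken over the other neuronal genes, without ina, the mean did not part the groups, and the ranges of salamander and control arrays overlapped. Of 10 muscle genes 7 were higher, with means of 0.06 to 0.10 on salamander arrays and -0.40 to 0.11 on controls. Of 9 red cell genes 2 were higher, with means of -0.67 to 0.06 on salamander arrays and -0.80 to 0.54 on controls. The 3 glial genes, out of 8 listed, had 1 higher and a median difference of -0.55. Their means were -0.90 to -0.36 on salamander arrays and -0.63 to 0.41 on controls. The red cell anion exchanger gene slc4a1 lay below all controls, at -2.33, -2.11 and -2.11 on salamander arrays against -1.44 to 0.95 on controls, a difference of -1.90. Groups did not overlap for 2 of 9 neuronal and 1 of 9 red cell genes, against 2.19% of all genes. They overlapped for every muscle and glial gene. None of these genes passed the test over all genes, and the part of cell composition in the members' values was not tested.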

How the data were processed

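Gene expression was measured on 9 single-colour Affymetrix Xenopus arrays, 3 salamander and 6 control, grouped by sample title. Per the submitters' processing notes, signals came from MAS5, whose version no source used here gives. The authors deposited log2 values, which within each probe set are relative to the median over control arrays, with a largest departure of 9.5e-07. The centring and the base were read from the values, and how arrays were scaled is unknown. The table held 0 columns of other samples. The number of arrays limits the precision, and the labels call samples of a group biological replicates.

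After 120 Affymetrix control probe sets were removed, limma 3.58.1 in R 4.3.3 (lmFit, eBayes without trend) was fitted to all 15491 probe sets and, with probe sets averaged, to 6485 genes. Benjamini-Hochberg adjustment ran over all of them, with calls at an adjusted p under 0.05. The fit was tested on simulated data. Symbols came from the platform annotation, which gave 9304 probe sets 1 symbol, 195 several and 5992 none; homeolog endings were removed for matching. A value was marked weak where its single-precision rounding was finer than a logarithm of 8 or more allows. All members were open to naming. Array values were given for the 3 smallest p-values per complex, core subunits, genes with several probe sets and at most 2 genes per related list. Array values of ndufaf7, ndufb5 and slc4a1 were added after their values were seen, and other members are given by their differences. Members, lists and alternatives were chosen with earlier results of these data known. Alternatives covered normalization, moderation, array weights, weak and non-specific probe sets, replicate number, spike-in level and each array left out. Python 3.11.15 and matplotlib 3.10.9 were used.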

Additional observations from a re-analysis of the deposited data

Results flagged for a closer look

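In 5 of the 70 members a single control array lay far from the other 5 by Dixon's criterion, or 7.14% against 9.19% of all probe sets, where chance flags about 5% of groups. Control array 1 read -2.92 for ndufs8, with the other controls between -0.11 and 0.44, and -0.90 for uqcrc1, with the others between -0.12 and 0.25. Control array 4 read -0.67 for the S copy of atp5pb, with the others between -0.07 and 0.22, and 0.95 for the S copy of atp5pd, with the others between -0.38 and 0.11. Control array 6 read -1.87 for the L copy of atp5pd, with the others between -0.26 and 0.59. The mean over the complex III probe sets also had control array 1 apart, at -0.29, with the other controls between 0.04 and 0.23.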

How the results depend on the processing

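For the members the count of calls was 0 under every alternative run, and 1 to 7 of them had an unadjusted p under 0.05. Over all probe sets it was 0 as well, with 475 (quantile normalization) to 861 (spike-in level as a factor) at an unadjusted p under 0.05, except that the fit to 7038 probe sets with at most 1 weak value had 336. Over all genes the count was 0 to 1 with 1 array left out and 0 under the other alternatives; the call was trappc6a, no member, at 3.999 (adjusted p = 0.015 in limma) without control array 3. The median difference over the members ran from -0.18 to 0.06 with 1 array left out, was 0.05 within the high spike-in arrays and -0.02 with the replicate number as a block. That block, over the arrays numbered 1 to 3, gave 0 calls among probe sets, members and genes. Same-numbered arrays did not deviate together (correlations of 0.0059, 0.016 and -0.0049 over all probe sets). Not every salamander array correlated best with its own number. This gave no sign of a pairing, but a shared origin too weak for these values to show was not excluded. With 1 array left out, the sign turned at least once in 29 of the 70 members and never in 41. The replicate SD had a median of 0.86 as deposited, 0.89 after quantile normalization and 0.86 with array medians removed.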

Other observations

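Salamander array 3 read lowest of all 9 arrays in 12 of the 70 members and highest in 13. Salamander array 1 was lowest in 5 members and highest in 15, and control array 2 was lowest in 8 and highest in 3. Over all probe sets each array was lowest in 10.4% to 12.1% and highest in 9.83% to 12.5%. Values below -2 were found for 6 members on salamander array 3, or 8.57% against 5.35% of all probe sets on that array, namely cox6c, ndufb5, ndufaf7, the L copy of atp5pd and the S copies of ndufs3 and ndufs7.

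The L copies numbered 35 member probe sets, with 17 higher in the salamander group, a median difference of -0.11 and a median SD of 0.88. The S copies also numbered 35, with 14 higher, a median of -0.21 and a median SD of 0.85.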
